A study of Rattus norvegicus with 6 samples.

Results

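The genes described here are 42 markers and signalling genes of blood vessels, of which 26 belong to the endothelium, 14 to the smooth muscle cells and pericytes that wrap it (together called mural cells), and 2 are growth factors made largely by other cells. They were chosen by name, and each was read through the probe set annotated to that gene alone with the highest mean over the 6 arrays. With this rule 37 of the 42 genes had a value (22 endothelial, 13 mural and both growth factors), out of 14217 genes measured in the same way. Expression of Robo4, Ednrb, Pdgfb, Cdh5 and Ednra was not analysed here, but promoters of all of them except Cdh5 were searched. The RNA came from hearts of male rats of a pair of strains. One is the inbred Dahl S rat, which is salt sensitive and prone to hypertension. The other is the congenic strain S.LEW(10)x12x2x3x5, which is Dahl S in its background and, per its strain name, carries a segment of chromosome 10 from the Lewis rat. Rats of both strains shared a birth date, were weaned at 30 days, ate the same low-salt chow (0.3%) and were 53 days old when the hearts were taken. Each strain had 3 arrays, and each array held RNA pooled from 2 rats, so 6 rats stood behind each strain and the spread between single animals cannot be seen.

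Vessels are lined by endothelial cells, which sense vascular endothelial growth factor through the receptor tyrosine kinases Kdr and Flt1, and keep the vessel quiescent through Tie receptors that read angiopoietins released by mural and other cells. Mural cells are recruited by platelet-derived growth factor from the endothelium acting on Pdgfrb, and set vessel tone with a contractile apparatus of smooth muscle actin, myosin and their regulators. In the heart, capillary endothelium is abundant between the cardiomyocytes, whereas contractile smooth muscle is confined largely to the walls of coronary arteries and veins and of the great vessels at the base.

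The values are log2 expression after RMA, a summary over the probes of a probe set. Pearson correlations between arrays over 31042 tested probe sets ran from 0.993 to 0.998, and 0 pairs of arrays were identical. All 8 cardiomyocyte markers were bright on every array, as the labelled tissue requires, and their strain differences ran from -0.05 to -0.01. Transcripts spiked into every sample as hybridization controls, read by 18 probe sets, averaged 11.54 for the third Dahl S pool and 11.55 for the second congenic pool, while the remaining 4 pools had 10.67 to 10.83. Each strain thus had 1 array at the high control level. Differences within the 4 arrays at the low level and between the 2 at the high level are given for some genes. Genes given without them may depend on the level too. In whole hearts, fewer cells of a type and less RNA per cell cannot be told apart.

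No vessel gene passed the test of a difference between the strains. Limma called 0 of the 37 genes between congenic and Dahl S at an adjusted p under 0.05, where 11 of 31042 probe sets (0.0354%) were called over the whole array, and the adjusted p of the vessel genes ran from 0.736 to 0.997. Differences, taken as congenic minus Dahl S, ran from -0.20 for Angpt1 to 0.25 for Acta2 on the log2 scale. The 95% interval of all 37 genes lay inside a 1.5-fold difference in either direction, the lowest bound being -0.43 (Myocd) and the highest 0.54 (Acta2). At an unadjusted p under 0.05 there were 2 genes, Eng on the higher and Angpt1 on the lower side, against 7.03% of all genes (3.47% higher and 3.55% lower). That count was 1 without Dahl S array 1 or congenic array 3, 0 without Dahl S array 2, congenic array 1 or congenic array 2, and 6 without Dahl S array 3. Positive differences were found for 28 of the 37 genes, with a median of 0.05, against 46.7% of all genes and a median of -0.01.

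**Figure D1:**
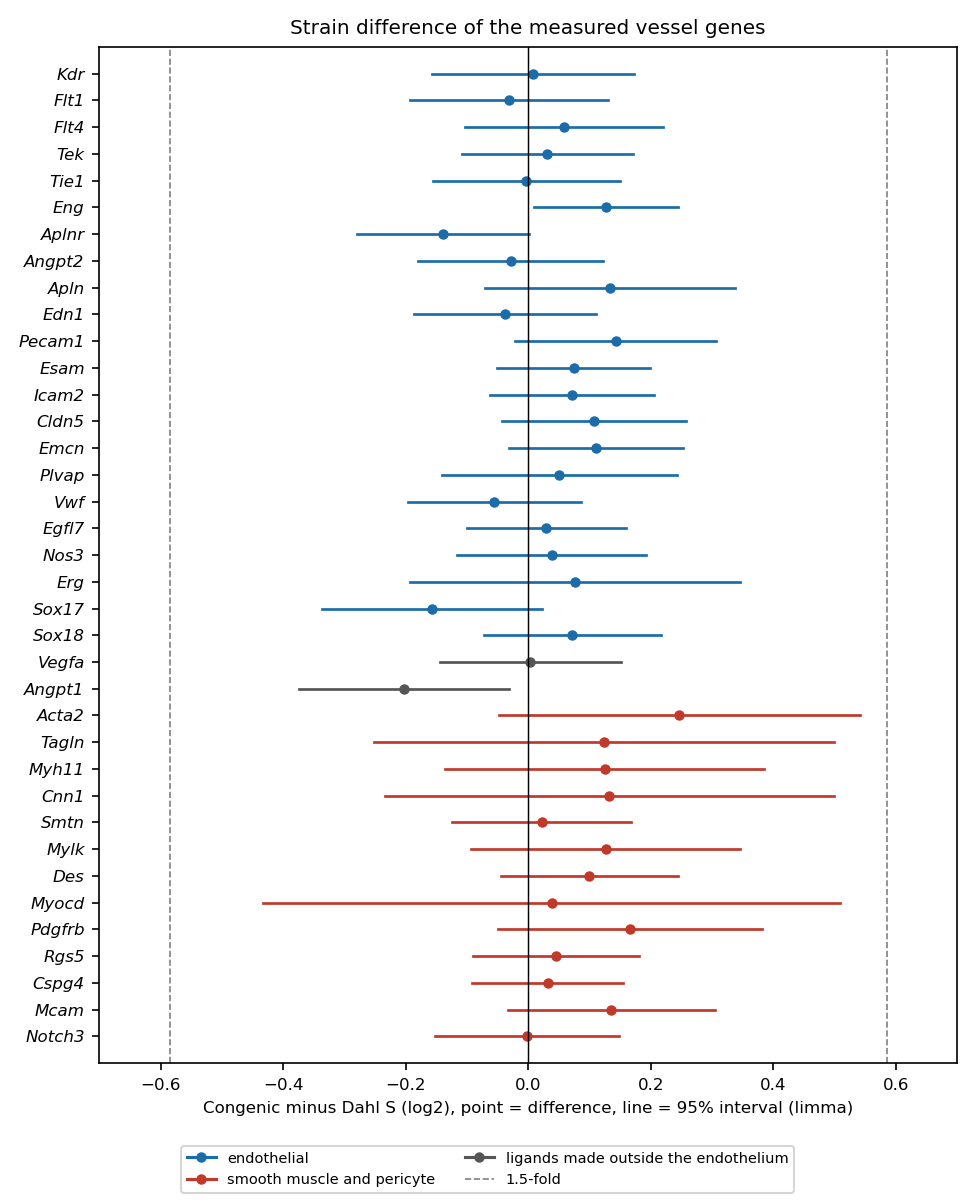
Strain difference of each of the 37 measured vessel genes. The horizontal axis is congenic minus Dahl S in log2 units, points are differences and lines are 95% intervals from limma (3 arrays per strain), and dashed lines mark a 1.5-fold difference. Every interval lies between the dashed lines, and the widest belong to contractile genes and Myocd.

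Receptors of the endothelium had a median strain difference of 0.01 over 7 measured genes, with 4 positive and 3 negative. Kdr, the main signalling receptor for vascular endothelial growth factor, read 10.89, 10.90 and 10.71 on Dahl S arrays 1, 2 and 3 and 10.90, 10.79 and 10.84 on the congenic arrays. The strains overlapped, and the difference of 0.01 had a 95% interval from -0.16 to 0.17. Flt1, a receptor of the same family that also acts as a decoy, differed by -0.03 (interval -0.19 to 0.13), and its dimmer probe sets differed by 0.02 and 0.03. Flt4, the family's lymphatic member, differed by 0.06 on a probe set dimmer than the median one (6.55). The angiopoietin receptor Tek differed by 0.03 (interval -0.11 to 0.17) and its orphan relative Tie1 by less than 0.01 in size (interval -0.16 to 0.15).

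Eng and Aplnr were the receptors whose strains did not overlap. Eng encodes endoglin, a co-receptor for bone morphogenetic proteins and transforming growth factor beta, and it read 10.70, 10.73 and 10.69 in Dahl S against 10.84, 10.83 and 10.84 in the congenic hearts. All congenic arrays lay above all Dahl S arrays, with a difference of 0.13 (SE 0.05, interval 0.01 to 0.24; limma adjusted p = 0.736). Its spread within a strain, 0.0141 (SD), was undercut by 0.513% of genes. Aplnr, the receptor for apelin on sprouting and venous endothelium, lay lower on every congenic array (10.32, 10.33 and 10.23) than on any Dahl S array (10.37, 10.44 and 10.49). Its difference was -0.14 (SE 0.06, interval -0.28 to 0.00; limma adjusted p = 0.755), and a dimmer probe set of the gene gave -0.13 with the strains again apart. Eng differed by 0.12 within the arrays of low control level and by 0.13 between those of high level, and Aplnr by -0.13 and -0.16.

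Of the ligands that endothelial cells release, 3 were measured, and their strains overlapped. Angpt2, which loosens contacts between endothelium and mural cells, read 7.84, 7.92 and 7.84 in Dahl S and 7.94, 7.80 and 7.78 in the congenic hearts, a difference of -0.03 (interval -0.18 to 0.12). Edn1, the precursor of the vasoconstrictor endothelin-1, differed by -0.04 (interval -0.19 to 0.11) on a probe set just below the median brightness. Apln, the peptide ligand of Aplnr, differed by 0.13 (interval -0.07 to 0.34) with 9.29, 9.37 and 9.05 in Dahl S and 9.40, 9.31 and 9.39 in the congenic hearts. Dahl S array 3 was the low one, and the difference was 0.07 within the arrays of low control level. Ligand and receptor of the apelin pair had differences of opposite sign, neither of which passed the threshold.

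Genes of endothelial junctions, surface and secretion had positive differences in 8 of 9 cases, with a median of 0.07 and none past the threshold (adjusted p 0.783 to 0.942). Pecam1, the platelet and endothelial adhesion molecule CD31, read 10.24, 10.40 and 10.44 in Dahl S and 10.52, 10.54 and 10.44 in the congenic hearts. The difference was 0.14 (SE 0.07, interval -0.02 to 0.31). Dahl S array 1 was the low one. Emcn, the sialomucin endomucin of capillaries and veins, read 10.79, 10.93 and 10.88 against 11.02, 10.98 and 10.93, and the highest Dahl S array lay just below the lowest congenic array (difference 0.11, interval -0.03 to 0.25). Esam, a tight-junction adhesion molecule, read 10.60, 10.59 and 10.57 in Dahl S and 10.65, 10.71 and 10.63 in the congenic hearts, apart by a small step (difference 0.07, interval -0.05 to 0.20). The tight-junction claudin Cldn5 differed by 0.11, the leukocyte ligand Icam2 by 0.07, Plvap, which forms the diaphragms of fenestrae and caveolae, by 0.05, nitric oxide synthase Nos3 by 0.04 and the secreted matrix-bound factor Egfl7 by 0.03. Vwf, the clotting factor stored in endothelial granules, was the exception, with -0.06 (interval -0.20 to 0.09). Within the arrays of low control level Plvap differed by 0.12 and Icam2 by 0.11. Between those of high level Plvap differed by -0.08 and Icam2 by -0.01.

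Among transcription factors of the endothelium, Erg, an ETS factor that maintains endothelial identity, varied most. It read 8.88 and 8.89 on Dahl S arrays 1 and 2 but 8.48 on array 3, and 8.86, 8.72 and 8.89 on the congenic arrays. Its difference was 0.08 (interval -0.19 to 0.35) on this probe set and -0.06 on the dimmer one, so that neither direction held across probe sets. On the brighter probe set Erg differed by -0.01 within the arrays of low control level and by 0.25 between those of high level. Sox18 differed by 0.07 (interval -0.07 to 0.22), by 0.01 within the low level and by 0.20 between the high-level arrays. Its relative Sox17, a factor of arterial endothelium, differed by -0.16 (SE 0.08, interval -0.34 to 0.02; limma adjusted p = 0.778), while its other, much dimmer probe sets gave 0.02 and -0.04.

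Vegfa and Angpt1 act on the endothelium from outside it. Vegfa, the growth factor for Kdr and Flt1, which cardiomyocytes also express, read 12.08, 12.09 and 11.95 in Dahl S and 12.09, 12.001 and 12.04 in the congenic hearts. Its difference was below 0.01 in size, with an interval from -0.14 to 0.15. Angpt1, the Tek agonist that stabilises vessels, had the most negative difference of the set. It read 4.96, 4.89 and 4.77 in Dahl S and 4.66, 4.58 and 4.76 in the congenic hearts, the highest congenic array lying just under the lowest Dahl S array (difference -0.20, SE 0.07, interval -0.37 to -0.03; limma adjusted p = 0.736). The probe set was far dimmer than the median one, so the value rests on weak signal and no fold is given. The difference was -0.21 within the arrays of low control level and -0.19 between those of high level.

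**Figure D2:**
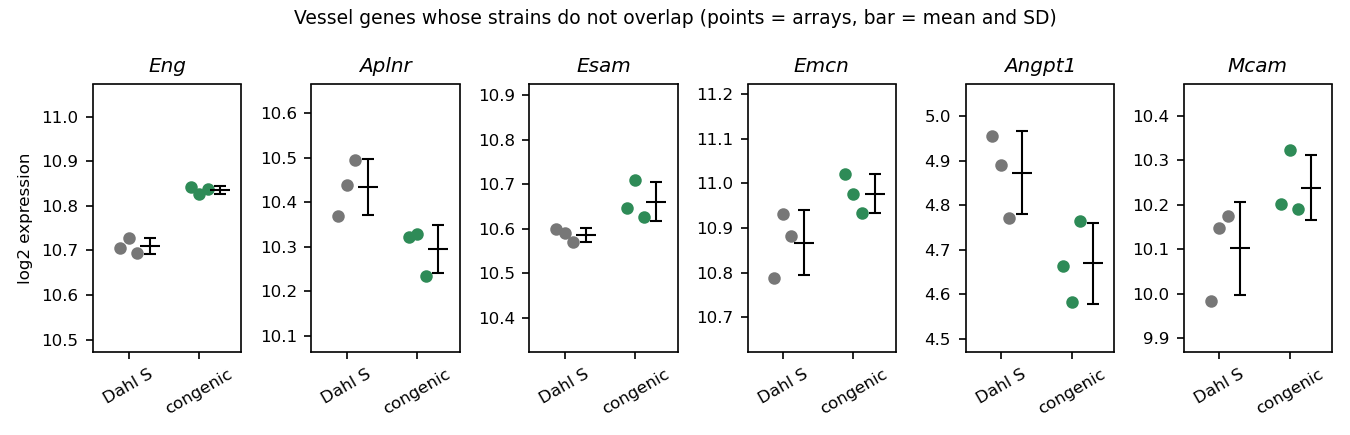
The 6 vessel genes whose strains do not overlap. Each panel shows log2 expression of 1 gene on the 3 Dahl S and 3 congenic arrays (points) with the mean and SD (bar), on axes of equal span but different level. Eng, Esam, Emcn and Mcam are higher and Aplnr and Angpt1 lower on the congenic arrays, by at most 0.20.

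In these 6 genes the arrays of both strains lay apart, 4 with the congenic arrays above (10.8% of 37) and 2 below, against 5.89% above and 8.75% below over all genes. All 6 differences were within 0.07 to 0.20 in size, and these counts were not tested.

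Contractile genes of smooth muscle had positive strain differences in 8 of 8 cases (median 0.12), against 46.7% of all genes, and none passed the threshold. The signs of Tagln, Cnn1, Smtn and Myocd changed in at least 1 of the alternative fits. Several contractile genes varied widely between arrays of 1 strain. Acta2, smooth muscle alpha-actin, read 10.19, 10.05 and 10.55 on Dahl S arrays 1, 2 and 3 and 10.39, 10.59 and 10.55 on congenic arrays 1, 2 and 3. Its difference of 0.25 (SE 0.13, interval -0.05 to 0.54; limma adjusted p = 0.790) was 0.39 without Dahl S array 3 (adjusted p = 0.665), 0.14 without Dahl S array 2, 0.35 within the arrays of low control level and 0.04 between those of high level. Dahl S array 3 was level with the congenic arrays and the other Dahl S arrays lay lower. Tagln, the actin-binding protein SM22, read 10.29, 10.03 and 10.65 against 10.26, 10.64 and 10.45. Cnn1, calponin, which inhibits myosin's ATPase, read 7.38, 7.13 and 7.72 against 7.33, 7.75 and 7.54. Both genes were lowest on Dahl S array 2 and highest on Dahl S array 3 and congenic array 2. Myh11, smooth muscle myosin heavy chain, followed it with 10.62, 10.51 and 10.90 against 10.71, 10.96 and 10.74, although its dimmer probe set differed by -0.01 between strains. Mylk, the kinase that starts contraction by phosphorylating myosin light chain, read 10.84, 10.90 and 11.10 against 10.95, 11.22 and 11.05, so that array 3 of Dahl S and array 2 of the congenic were again the highest of their strain.

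These 5 genes, singled out after their values had been seen, had strain differences from 0.12 to 0.25. Their arrays of high control level exceeded the mean of the other arrays of the strain by 0.23 (Mylk) to 0.49 (Tagln) in Dahl S and by 0.12 (Acta2) to 0.31 (Cnn1) in the congenic hearts. Between the arrays of high level, the strain difference of Tagln was -0.01, of Cnn1 0.03, of Acta2 0.04 and of Myh11 0.06, but that of Mylk was 0.12, against 0.13 over all arrays. Within a strain the SD of Tagln was 0.26, above that of 98.0% of genes, and that of Cnn1 0.25, against a median of 0.08 over all genes. The remaining contractile genes did not share the pattern. Smtn, smoothelin of the mature contractile cell, differed by 0.02 (interval -0.12 to 0.17) and was lowest on both arrays of high control level. Des, desmin, an intermediate filament protein that cardiomyocytes express as well, read 13.14, 13.14 and 13.04 in Dahl S and 13.21, 13.14 and 13.27 in the congenic hearts (difference 0.10, interval -0.04 to 0.24). Myocd, the coactivator that drives the contractile programme and is also found in cardiomyocytes, had the greatest spread of the set (SD 0.33) and read 8.78, 8.16 and 7.93 in Dahl S and 8.15, 8.32 and 8.51 in the congenic hearts. The difference of Myocd was 0.04 over all arrays, -0.14 within the low level and 0.39 between the high-level arrays. Myocd was lowest on Dahl S array 3, where Tagln, one of the genes it is known to activate, was highest. Among the congenic arrays both genes were lowest on array 1. A link between Myocd and the contractile pattern was not tested.

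**Figure D3:**
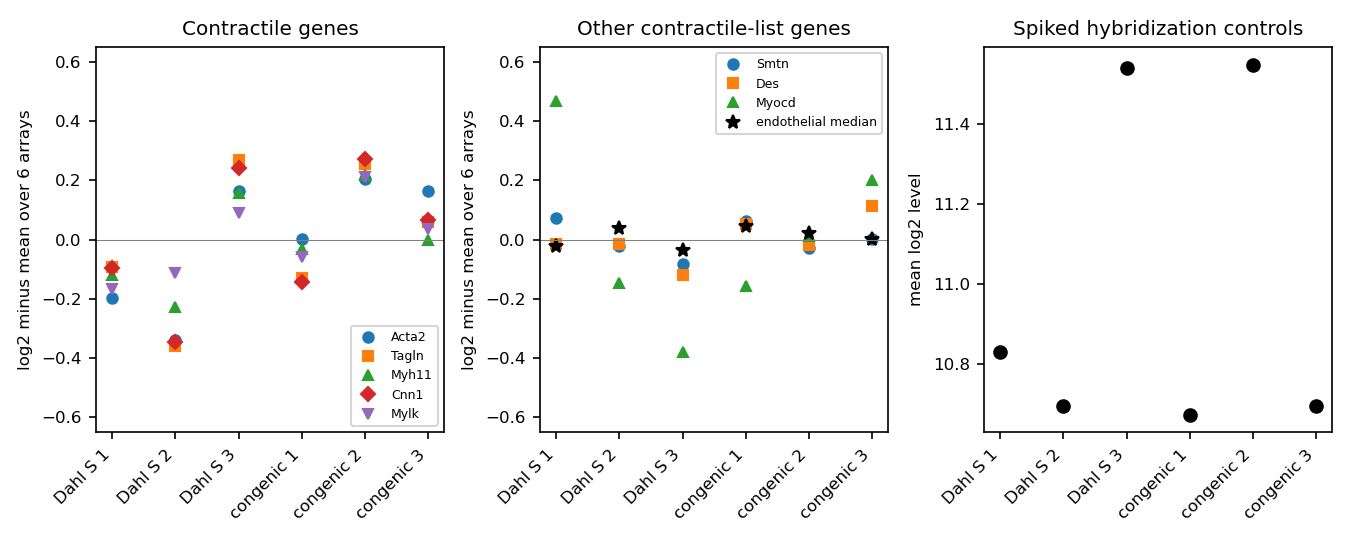
Contractile-list genes and spiked controls on each array. The left and middle panels plot log2 expression minus the gene's mean over 6 arrays for single genes (the star is the median of 22 endothelial genes), and the right panel plots the mean log2 level of 18 hybridization-control probe sets on its own scale. Acta2, Tagln, Myh11, Cnn1 and Mylk are highest within each strain on Dahl S array 3 and congenic array 2, the arrays with control levels of 11.54 and 11.55.

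Over all genes, 14.8% were highest in both strains on the array of high control level and 13.0% were lowest there. The same held for 5 of 8 contractile genes, 1 of 5 mural receptor and pericyte genes (Mcam) and 3 of 22 endothelial genes on the high side, and for 2 contractile and 7 endothelial genes on the low side. In a separate list of 27 measured smooth muscle and pericyte genes, 9 were highest there (33.3%), among them Actg2, Cnn2, Tpm2 and Lmod1. In the same list 5 were lowest (18.5%), namely Tpm1, Srf, Vtn, Cox4i2 and Rgs4. That list is not confined to mural cells. Tpm1 and Pln in it were as bright as cardiomyocyte markers (Dahl S means 14.64 and 14.12), and Pdgfra is also read here as a fibroblast marker. Actg2, the enteric smooth muscle actin, read 8.24, 7.90 and 8.57 in Dahl S and 8.08, 8.60 and 8.35 in the congenic hearts, again lowest on Dahl S array 2. Acta2 and Actg2 encode nearly identical actins, and whether their probe sets share signal was not tested. Adipocyte markers moved with these arrays too: 4 of 5 were highest there, and their median relative to each gene's mean was -0.77, 0.20 and 0.83 on Dahl S arrays 1, 2 and 3 and -0.34, 0.68 and -0.50 on the congenic arrays. Plin1, the lipid droplet coat protein of fat cells, ran from 7.37 on Dahl S array 1 to 9.27 on Dahl S array 3. Lymphocyte markers had medians of -0.34, -0.61 and 1.41 on Dahl S arrays 1, 2 and 3 and of 0.35, -0.44 and -0.44 on the congenic arrays. The part of the control level and of fat or lymphoid tissue in the contractile pattern was not tested.

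Receptors and markers of pericytes had a median difference of 0.05 over 5 genes, the largest being 0.17 (Pdgfrb), with none past the threshold. Pdgfrb, the receptor through which mural cells are recruited, read 9.20, 9.37 and 9.55 in Dahl S and 9.47, 9.56 and 9.58 in the congenic hearts, a difference of 0.17 (SE 0.09, interval -0.05 to 0.38; limma adjusted p = 0.797). It was 0.25 within the arrays of low control level and below 0.01 between those of high level, and the other Pdgfrb probe sets gave 0.02 and 0.04. Mcam, the adhesion molecule CD146 of pericytes that endothelium also carries, read 9.98, 10.15 and 10.18 against 10.20, 10.32 and 10.19 and so stood apart by a small margin. It differed by 0.14 (SE 0.07, interval -0.03 to 0.30) on this probe set and by 0.22 on the dimmer one (limma adjusted p = 0.736). Rgs5, a regulator of G protein signalling in pericytes, differed by 0.05 (interval -0.09 to 0.18), and the proteoglycan Cspg4, also called NG2, by 0.03 (interval -0.09 to 0.16). Notch3, the Notch receptor of arterial smooth muscle, differed by less than 0.01 in size (interval -0.15 to 0.15).

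Set side by side over the arrays, the median of the endothelial members moved less than that of the mural members. The median of the 22 endothelial genes, each relative to its own mean, was -0.02, 0.04 and -0.04 on Dahl S arrays 1, 2 and 3 and 0.05, 0.02 and 0.00 on the congenic arrays, a range of 0.08. For the 13 mural genes it was -0.09, -0.09 and 0.01 in Dahl S and 0.00, 0.10 and 0.06 in the congenic hearts. The mural range was 0.20, with 0.39 for the 8 contractile genes alone but 0.12 for the 5 mural receptor and pericyte genes. In the separate list of 27 smooth muscle and pericyte genes the range was 0.08, as for the endothelial members. Within the endothelial members it ran from 0.10 for receptors to 0.23 for transcription factors. Only 1 of 13 mural genes lay above its own mean on Dahl S array 2 (Rgs5) and 12 of 13 did on congenic array 3. The median strain difference was 0.04 for endothelial and 0.12 for mural genes. It was 0.12 for the 8 contractile but 0.05 for the 5 mural receptor and pericyte genes. In the separate list of 27 smooth muscle and pericyte genes it was 0.001, with 14 positive and 13 negative. Because that list includes genes such as Tpm1, Pln and Pdgfra, its median and range do not stand for mural cells alone. The gap of 0.08 between the member classes is about as large as the SD of that gap on single arrays of a strain (0.08). That SD describes single arrays and not a difference between strain means. With 1 array left out that gap ran from -0.02 (without Dahl S array 2) to 0.15 (without Dahl S array 3), and it was -0.01 between the arrays of high control level and 0.12 within those of low level.

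**Figure D4:**
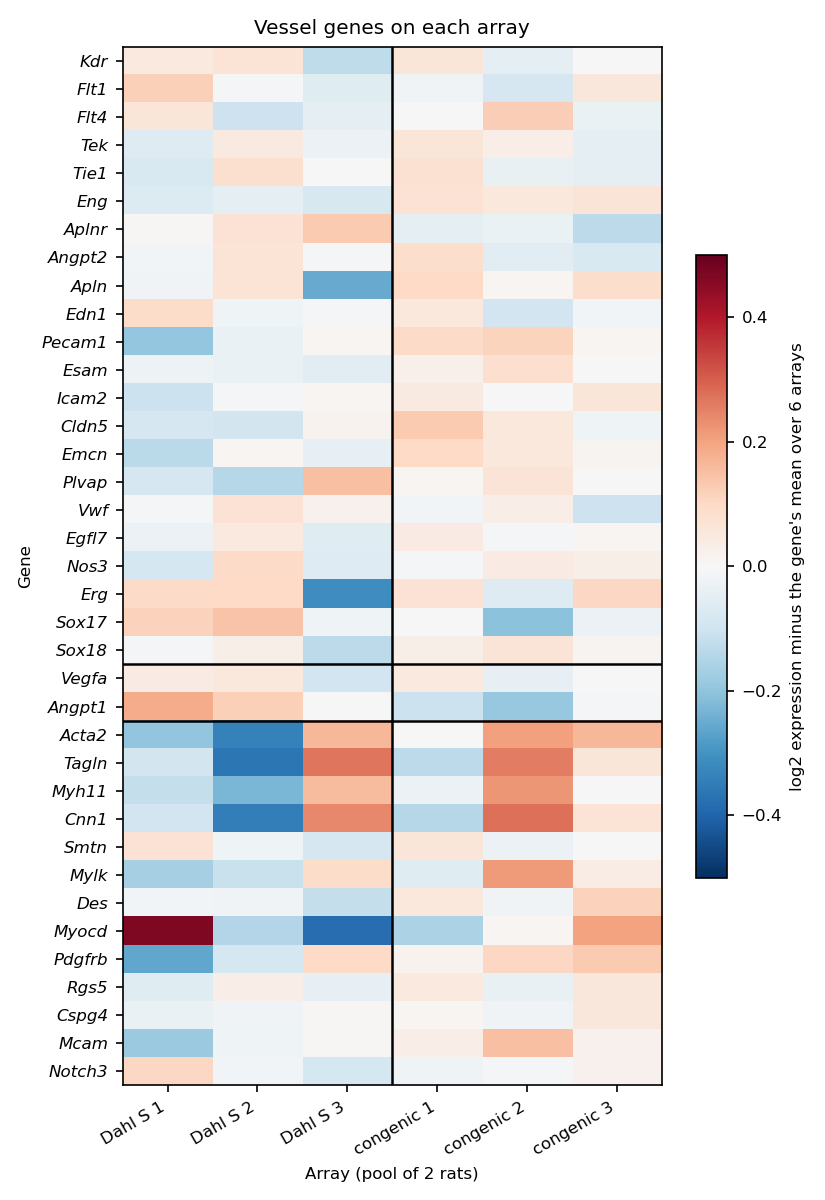
Vessel genes by array. Rows are the 37 measured genes (endothelial above, the 2 outside ligands in the middle, mural below), columns are arrays of 2 pooled rats, and colour is log2 expression minus the gene's mean over 6 arrays. Most endothelial rows are pale (Erg and Apln on Dahl S array 3 are darker), whereas Acta2, Tagln, Myh11, Cnn1 and Mylk are red together on Dahl S array 3 and congenic array 2.

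Promoters were searched to see what sequence the members share. RefSeq (GRCr8) promoters were found for 26 of the 42 genes, 28 promoters in all, and the 250 bases before each start were read on both strands. These include promoters of Robo4, Ednrb, Pdgfb and Ednra, whose expression was not analysed. The ETS-type word AGGAAG occurred in 11 of 17 endothelial promoters (64.7%), Robo4 among them, and 2 of 9 mural ones (Ednra and Mylk). It was in 29.5% of all 33469 promoters. Related words gave 8 of 17 endothelial and 4 of 9 mural promoters for CAGGAA, which can overlap AGGAAG (24.7% of all), and 1 of each class for CCGGAA (12.6% of all). TATAAA and GATAAG were found in 3 endothelial promoters each and in 0 mural ones (12.9% and 6.18% of all), and GTGGGAA in 2 endothelial promoters and 1 mural promoter (5.27% of all). A strict CArG box, the element bound by serum response factor, was in 0 of the 28 promoters (1.5% of all). A CArG box with up to 1 C or G in its core was in 3 endothelial promoters (Kdr, Tie1 and Pdgfb). Among the 9 mural promoters, that of Acta2 alone held one (8.08% of all). The mural genes Tagln, Myh11, Myocd, Pdgfrb and Mcam had no promoter to search, and sequence beyond 250 bases was not read. The promoters of Eng and Emcn, whose strains lay apart, and of Acta2, the contractile gene with the largest strain difference, are shown, with AGGAAG on either strand in capitals for Eng (chr3:36332029-36332278, plus strand) and Emcn (chr2:228564289-228564538, plus strand) and the CArG-type elements in capitals for Acta2 (chr1:241172504-241172753, minus strand), each 5′ to 3′ and ending at the last base before the start.
Eng: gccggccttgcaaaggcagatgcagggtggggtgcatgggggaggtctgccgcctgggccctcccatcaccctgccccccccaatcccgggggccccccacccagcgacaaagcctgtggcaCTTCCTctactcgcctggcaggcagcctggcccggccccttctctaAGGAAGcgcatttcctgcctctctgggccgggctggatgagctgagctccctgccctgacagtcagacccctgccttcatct
Emcn: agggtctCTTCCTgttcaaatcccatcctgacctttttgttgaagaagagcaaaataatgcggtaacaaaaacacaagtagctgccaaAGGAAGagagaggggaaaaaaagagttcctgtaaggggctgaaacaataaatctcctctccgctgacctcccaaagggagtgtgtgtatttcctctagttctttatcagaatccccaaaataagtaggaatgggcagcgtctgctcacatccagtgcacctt
Acta2: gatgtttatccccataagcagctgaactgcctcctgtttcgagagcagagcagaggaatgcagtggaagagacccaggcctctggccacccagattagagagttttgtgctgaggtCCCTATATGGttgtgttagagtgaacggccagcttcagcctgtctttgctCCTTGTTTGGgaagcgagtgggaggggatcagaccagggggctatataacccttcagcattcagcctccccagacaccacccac

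In Eng the word begins 128 and 82 bases before the start, and in Emcn 243 and 162 bases before it. The elements of Acta2 begin 134 and 84 bases before the start. Promoters of the endothelial genes were rich in G and C (median 61.6%), as were those of the mural genes (59.6%), against 51.2% over all promoters. The words were picked with the expression values known, and a match is a description of these letters only.

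The wider vessel pathways gave no call either. Of 114 further genes in 7 lists, 106 were measured, limma called 0 of them, and 6 had an unadjusted p under 0.05, all higher in the congenic hearts (5.66% against 3.47% of all genes) and 0 lower. That count was 3 without congenic array 3 and 8 without Dahl S array 3. Their median difference was 0.01, and the strains did not overlap in 7 genes with the congenic arrays above (6.60% against 5.89% of all genes) and 5 with them below (4.72% against 8.75%). In the VEGF list (9 genes) and the endothelial regulator list (17 genes) 0 genes had a p under 0.05, and the same was true of the Notch and arterial list (15 genes). Vegfb, a Flt1 ligand that cardiomyocytes make, lay lower on every congenic array (10.71, 10.73 and 10.68) than on any Dahl S array (10.78, 10.92 and 10.80), a difference of -0.13 (interval -0.26 to 0.01). In the bone morphogenetic protein and TGF-beta list, 1 of 11 genes had a p under 0.05, Smad6, the inhibitory Smad, at 0.18 (7.45, 7.32 and 7.28 against 7.56, 7.49 and 7.53). Smad6 has 4 probe sets, and with the mean of all of them its limma p was not under 0.05.

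Of 20 measured capillary and surface genes of the endothelium, 2 had a p under 0.05. Ecscr, an endothelial surface protein, read 9.63, 9.58 and 9.59 in Dahl S and 9.72, 9.82 and 9.82 in the congenic hearts (difference 0.19, SE 0.06; limma adjusted p = 0.731). Sele, E-selectin, which captures leukocytes on inflamed endothelium, read 4.11, 4.12 and 4.16 in Dahl S and 4.39, 4.30 and 4.37 in the congenic hearts, a difference of 0.22 on a probe set so dim that no fold is given. Among 27 smooth muscle and pericyte genes there were also 2, Csrp1, a LIM protein of smooth muscle, at 0.16 and Tpm2, beta-tropomyosin, at 0.24. Csrp1 read 10.55, 10.50 and 10.64 in Dahl S and 10.73, 10.72 and 10.72 in the congenic hearts, which lay apart. Tpm2 read 10.69, 10.62 and 10.95 against 10.92, 11.13 and 10.93, overlapping between strains and highest on the same arrays as Tagln. Ptgis, which makes the vasodilator prostacyclin, was the 1 of 7 genes in the list of vasoactive signals, with 10.66, 10.67 and 10.78 in Dahl S and 10.84, 10.94 and 10.88 in the congenic hearts (difference 0.18, SE 0.06; limma adjusted p = 0.736).

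Markers of other cell types were read on the same arrays. These lists are not fully separate from the vessel genes. The endocardial marker Plvap is also an endothelial member, and the fibroblast marker Pdgfra is also in the separate smooth muscle and pericyte list. Lymphatic endothelial markers had a median difference of -0.08 (6 genes) and endocardial markers of -0.05 (5 genes), with 0 genes of either list at a p under 0.05. Fibroblast markers had a median of 0.15 (8 of 8 positive), and relative to each gene's mean they stood at -0.11, -0.12 and -0.01 on Dahl S arrays 1, 2 and 3 and at -0.02, 0.17 and 0.08 on the congenic arrays, with 5 of 8 highest on both arrays of high control level, as for the contractile genes. The median difference was 0.16 for 8 macrophage markers, 0.25 for 4 erythroid markers, 0.25 for 4 markers of mesothelium and epicardium and 0.01 for 3 Schwann cell markers. For macrophage markers it was 0.26 within the arrays of low control level and -0.01 between those of high level. Adipocyte markers had a median difference of -0.17 (-0.11 within the low level and -0.22 between the high-level arrays). That of lymphocyte markers was -0.29 over all arrays, 0.28 within the low level and -1.86 between the high-level arrays. Within the low level Cd3e, Cd3d and Lck differed by 0.76, 0.85 and 0.61, but Cd79b, Ms4a1 and Cd2 by -0.11, -0.05 and -0.08. Cd3e, Cd3d and Lck were high on Dahl S array 3 and also on congenic array 1, a low-level array (7.49, 7.87 and 8.78). An unadjusted p under 0.05 was found for 2 fibroblast markers (Col1a1 and Col1a2), 2 macrophage markers (Adgre1 and C1qb), 2 erythroid markers (Alas2 and Ahsp), 2 markers of mesothelium and epicardium (Krt19 and Aldh1a2) and 1 adipocyte marker (Lep), all higher in the congenic hearts, against 3.47% of all genes. Lep, Adgre1 and Krt19 were read on probe sets dimmer than the median one, and the strains of Lep overlapped. The other adipocyte markers, Adipoq, Plin1, Cfd and Cidec, differed by -0.20, -0.17, -0.005 and -0.21. Limma called 0 of the 57 measured markers. The part of these cells in the vessel gene differences was not tested.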

How the data were processed

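Hearts of 6 Dahl S and 6 congenic rats, pooled in pairs into 3 samples per strain, were hybridized to Affymetrix rat genome expression chips (15 µg of cRNA each). The deposited values are log2 expression per probe set, made by the authors with RMA, per the submitters' processing notes; its version and probe annotation are not given in the sources used here. No normalization was added. The table holds 31099 probe sets, 57 of them controls that were not tested. By GEO's platform annotation (symbols brought up to date from RefSeq, GRCr8) 20826 probe sets have 1 gene, 436 several and 9780 none; only the first kind were named.

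The strain contrast was fitted by lmFit and eBayes of limma 3.58.1 under R 4.3.3, with strain as the only term, and p-values were adjusted by Benjamini-Hochberg over all 31042 probe sets, with a call at an adjusted p under 0.05. The fit was tested on simulated data with independent noise and shifts larger than any vessel gene difference here. That test does not cover differences of the size reported. Intervals are at 95%. Nothing ties a pool's number to a cage or day, and p-values measure the spread between 3 pools per strain; with so few arrays, their number limits the precision. The members and gene lists were chosen with earlier results of these data known, so no p is given for a list. Values on every array were given for members with an unadjusted p under 0.05 or with strains that did not overlap, for the first gene of each role, for Des and Vegfa, for pathway genes with an unadjusted p under 0.05, and, after their values had been seen, for Apln, Tagln, Myh11, Cnn1, Mylk, Myocd, Actg2 and Vegfb. Marker lists of 10 cell types (62 genes) were read, 57 of them measured. Alternatives covered each array left out, the replicate number or the hybridization-control level as a block, low-level arrays alone, quantile normalization, median centring, bright probe sets only, ordinary variance and the mean of all probe sets of a gene.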

Additional observations from a re-analysis of the deposited data

How the results depend on the processing

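Of the 37 vessel genes, 0 were called under any of the alternatives. The sign of the difference held in every alternative that gave a value for 25 of the 37, and the 12 that changed sign had main differences of at most 0.13 in size. The count of genes with an unadjusted p under 0.05, 2 as reported, was 4 with quantile normalization, 4 with the mean of all probe sets, 5 when the level of the spiked controls was blocked and 0 with the replicate number as a block, and it ran from 0 to 6 with 1 array left out. Same-numbered pools did not deviate together (correlations of their deviations -0.07, -0.06 and -0.18), so the numbers were not taken to pair the samples. The block changed no call among the members. The pathway count, 6 as reported, was 10 with the ordinary variance, 4 with the replicate block, and 3 to 8 with 1 array left out. The endothelial median of 0.04 was 0.011 within the arrays of low control level and 0.02 to 0.06 with 1 array left out. The mural median of 0.12 was 0.053 between the arrays of high control level (a setting chosen after seeing the data) and 0.043 to 0.17 with 1 array left out; the gap between the classes, 0.08, was -0.0062 there and ran from -0.019 to 0.15. Flt4, Edn1 and Angpt1 have no value in the setting with bright probe sets only, where the signal of Angpt1 is too weak to be kept. The cause of these shifts was not tested.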
